A study of Rattus norvegicus with 2 samples.

Results

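The genes described here encode the enzymes that carry glucose through the first 4 steps of glycolysis, measured in rat heart against a pool of cultured rat cells. The 9 genes are the hexokinases Hk1, Hk2 and Hk3, the phosphoglucose isomerase Gpi, the phosphofructokinases Pfkm, Pfkl and Pfkp, and the aldolases Aldoa and Aldoc. They were chosen by gene symbol in the platform's annotation, and 11 of the 40012 probes carried such a symbol, for 9 of the 15614 genes with a name. Hk1 and Gpi each had 2 probes and the remaining 7 genes 1 probe.

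Heart RNA from 2 untreated rat samples, taken without cell culture and numbered 1 and 2, was labelled with Cy3 and hybridised to 1 two-colour Agilent array each. The other channel of both arrays held Cy5-labelled RNA of the control pool, mix1, in which rat bone marrow cells and rat primary ear fibroblasts, both grown in serum-containing medium, were combined. Strain, age and sex are not given in the labels, nor whether the heart samples came from separate animals, so a p-value here reflects no more than the spread of these 2 samples, possibly a technical one. Dyes were not swapped, and mix1 is a single control sample whose own spread enters no test.

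Every value below is a log2 ratio of heart over mix1, where 1 stands for a 2-fold higher and -1 for a 2-fold lower signal in heart. The direction is likely rather than stated: it rests on the series text and on the cardiomyocyte markers, of which 8 of 8 were positive, from 3.85 for Nppa to 7.23 for Mybpc3. Fibroblast markers lay on the other side in 8 of 8 cases, between -8.36 for Fn1 and -1.57 for Pdgfra. No spot intensity was used here, so the ratios say how heart compares with mix1 for each gene and not which isoform is the most abundant in either. In bulk RNA, fewer cells of a type and less RNA per cell cannot be told apart.

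Array 2 stood apart in its markers of lung epithelium. All 7 were higher on array 2 than on array 1, by 1.98 to 5.94 on the log2 scale, with medians of -0.21 on array 1 and 3.85 on array 2. The 9 glycolytic genes differed between the arrays by at most 0.14, the value of Hk2, and 8 of 9 differed by less than the median gene (0.0833). Over all genes, ratios differed between the arrays with an SD of 0.344. The value on each array is given for every gene, so that each result can also be read from array 1 alone.

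Glycolysis splits glucose into pyruvate in the cytosol. Hexokinase traps glucose in the cell as glucose phosphate, the isomerase turns this into the fructose form, phosphofructokinase adds a further phosphate in the step at which the pathway is chiefly controlled, and aldolase cuts the product into triose phosphates. Most of these enzymes come as isoforms with preferred tissues: striated muscle is known for Hk2, Pfkm and Aldoa, liver for Pfkl, platelets and proliferating cells for Pfkp, brain for Aldoc, and white blood cells for Hk3. The adult heart draws most of its energy from fatty acids and uses glucose as a second fuel.

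The isoforms of one enzyme did not move together. In each of the 3 families, 1 isoform had a clearly higher ratio than another: Pfkm stood 4.32 above Pfkp, Hk2 stood 3.27 above Hk3, and Aldoa stood 2.86 above Aldoc. In limma's test over all genes, 6 of the 9 genes passed as higher in heart (Pfkm, Aldoa, Gpi, Hk2, Hk1 and Pfkp), 2 as lower (Aldoc and Hk3), and Pfkl did not pass. So many genes differed between heart and the cultured cells that such a count says little of the pathway: 72.9% of all genes passed, 31.4% as higher and 41.5% as lower. With a difference of at least 2-fold required as well, 4 of 9 were left (Pfkm, Aldoa, Aldoc and Hk3), beside 36.4% of all genes. The median of the 9 mean ratios was 0.28, and that of all genes was -0.09.

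**Figure D1:**
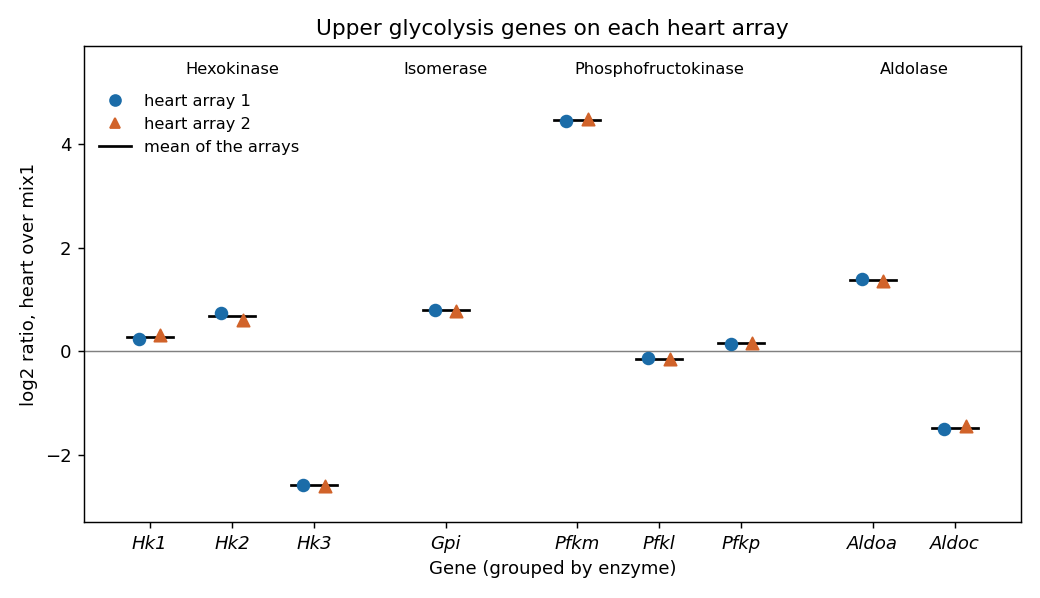
Log2 ratio of heart over mix1 (vertical axis) for each of the 9 genes (horizontal axis, grouped by enzyme). Circles are heart array 1, triangles heart array 2 and bars the mean of both. Pfkm stands at 4.47, Hk3 at -2.58, and the arrays nearly coincide for every gene.

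Phosphofructokinase showed the widest split. Pfkm, the muscle subunit of the enzyme that commits the sugar to glycolysis, had a log2 ratio of 4.45 on array 1 and 4.49 on array 2. Its mean of 4.47 ± 0.03 (SD, n = 2) corresponds to a 22.2-fold higher signal in heart (limma adjusted p 0.0012). Both arrays placed it far above the other genes described here, and by its mean it ranked 281st of 15614 genes, with 98.2% of all genes below it. Among all genes, 2.32% passed the test at 16-fold or more in this direction. Because Pfkm belongs to muscle, the skeletal muscle markers were read beside it. Among 7 measured, 3 were higher in heart (Tnnt3, Tnni2 and Myog), 2 lower (Myh1 and Myh2) and 2 did not pass. Of all genes, 31.4% were higher and 41.5% lower. Myh1, a skeletal myosin, was at -8.82 on array 1 and -9.97 on array 2, and Myh2 at -5.13 and -4.33. Myog was at 1.78 and 1.87. The part of these markers in the results for the muscle isoforms was not tested.

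The other subunits of the same enzyme lay near 0. Pfkl, the liver subunit, was at -0.13 on array 1 and -0.15 on array 2, with a mean of -0.14 ± 0.01 (n = 2), and did not pass (limma adjusted p 0.0565). Pfkp, the platelet subunit, was at 0.14 and 0.16, with a mean of 0.15 ± 0.01 (n = 2), just inside the threshold (limma adjusted p 0.0477). That call did not hold after centring each array on its median (adjusted p 0.319), under robust moderation (0.0503) and in the fit over probes (0.0776). Ratios this close to 0 cannot be told apart from dye bias in a design without a dye swap.

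Within each array, Pfkm exceeded Pfkl by 4.58 and 4.64, a mean difference of 4.61 ± 0.04 (SD, n = 2) or a 24.4-fold difference between their ratios. It exceeded Pfkp by 4.31 and 4.33, a mean of 4.32 ± 0.02 (n = 2). Both differences are far larger than the spread between the arrays. Pfkl lay below Pfkp by 0.27 and 0.31, in the same direction on both arrays. How far probes of a single gene lie apart gives a scale for these differences: over the 2972 genes with exactly 2 probes, the median distance between the probe means was 0.639. Of these genes, 0.74% had probes at least as far apart as Pfkm and Pfkl, and 73.9% had probes at least as far apart as Pfkl and Pfkp.

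The sequences before the start sites of the 3 phosphofructokinase genes are shown because this family had the widest gap between isoforms among the hexokinases, phosphofructokinases and aldolases. They are the 250 bases upstream of the annotated start in RefSeq (build GRCr8), read 5′ to 3′ on the strand of the gene. Capitals mark matches on either strand to GGGCGG (the SP1 box), ACGTG (the core of the hypoxia response element) or a MEF2-like pattern. That pattern is CTA, any 4 bases, then TAG. It only approximates the site of the MEF2 factors, which regulate muscle genes. A match need not be such a site, and a site can lack a match.
Pfkm, chr7:131113849-131114098 (+ strand): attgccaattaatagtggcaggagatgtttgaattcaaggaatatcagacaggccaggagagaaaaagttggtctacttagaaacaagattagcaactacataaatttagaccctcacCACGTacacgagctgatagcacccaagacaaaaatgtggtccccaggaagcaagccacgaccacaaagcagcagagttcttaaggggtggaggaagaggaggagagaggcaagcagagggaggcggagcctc
Pfkl, chr20:10663715-10663964 (+ strand): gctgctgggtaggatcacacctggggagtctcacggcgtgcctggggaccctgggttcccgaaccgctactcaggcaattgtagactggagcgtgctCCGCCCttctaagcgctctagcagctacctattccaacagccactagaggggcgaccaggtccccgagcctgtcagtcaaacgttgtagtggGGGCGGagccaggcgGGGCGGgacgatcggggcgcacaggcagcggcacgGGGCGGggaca
Pfkp, chr17:68639563-68639812 (+ strand): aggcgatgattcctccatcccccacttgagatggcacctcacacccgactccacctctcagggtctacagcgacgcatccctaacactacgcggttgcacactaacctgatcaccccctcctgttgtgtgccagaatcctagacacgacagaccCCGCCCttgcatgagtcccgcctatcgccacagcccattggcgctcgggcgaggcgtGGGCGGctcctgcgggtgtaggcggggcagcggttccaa
The Pfkl window held 4 matches to GGGCGG, the nearest beginning 11 bases before the start, and the Pfkp window held 2, the nearest at 39 bases. The Pfkm window held none and had a GC content of 47.6%, against 66.0% for Pfkl and 62.8% for Pfkp. Of 33469 windows of this length in the table, 30.5% held GGGCGG. Pfkm had the only ACGTG match of the 3, 132 bases before the start, a motif found in 16.6% of all windows. None of the 3 windows held the MEF2-like pattern, and no matches overlapped in them. A match is a run of letters and no measured binding site, and other start sites of these genes were not searched.

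Hexokinase was split between Hk1 and Hk2, with means slightly above 0, and Hk3, well below it. The side of 0 on which Hk1 lay depended on the probe. Hk2, the insulin-responsive hexokinase of muscle and fat, had log2 ratios of 0.75 on array 1 and 0.61 on array 2. Its mean was 0.68 ± 0.10 (SD, n = 2), a 1.6-fold higher signal in heart (limma adjusted p 0.00877). The arrays differed by 0.14, the most among the 9 genes, and 36.3% of all genes differed by more. Hk2 had 1 probe, and its mean was hardly larger than 0.639, the median distance between the probes of genes with 2 probes. Of those genes, 26.0% had probes of opposite sign.

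Hk1, the hexokinase found in most tissues, was at 0.25 and 0.31, with a mean of 0.28 ± 0.04 (n = 2) and a limma adjusted p of 0.0214. This mean joined probes that disagreed. Probe A_43_P11538 read 0.66 and 0.74 (mean 0.70 ± 0.06, higher in the fit over probes at an adjusted p of 0.0073), while probe A_44_P139536 read -0.17 and -0.13 (mean -0.15 ± 0.03, adjusted p 0.0871). The probes were 0.853 apart, and 39.1% of the genes with 2 probes had probes at least as far apart. With the second probe alone Hk1 lay on the other side of 0, so that its direction depends on the probe. After the arrays were centred the averaged value did not pass either (adjusted p 0.102).

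Hk3, a hexokinase of white blood cells, was lower in heart than in mix1. It was at -2.57 on array 1 and -2.59 on array 2, a mean of -2.58 ± 0.01 (SD, n = 2) or a 6.0-fold lower signal (limma adjusted p 0.0012). It had the lowest ratio of the 9 genes, and 4.86% of all genes lay below it.

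Mix1 contains bone marrow cells, and heart contains blood and resident leucocytes, so the markers of macrophages and granulocytes are given beside Hk3. Of 10 such markers 3 were higher in heart, 4 lower and 3 did not pass, beside 31.4% of all genes higher and 41.5% lower. Their median was -0.19 on array 1 and -0.03 on array 2. They ranged on array 1 from -3.81 for Cd14, a monocyte surface receptor, to 6.30 for S100a9, a granulocyte calcium-binding protein, and on array 2 from -3.81 to 5.83 for the same genes. Of 4 lymphocyte markers 3 were higher in heart, beside the same 31.4% of all genes. These were Cd3g at 6.15, Cd2 at 4.34 and Ms4a1 at 1.36. Cd3e, at 2.44 on array 1 and 0.16 on array 2, did not pass. The part of either list in the Hk3 result was not tested.

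Hk1 exceeded Hk3 by 2.82 on array 1 and 2.90 on array 2, a mean of 2.86 ± 0.06 (SD, n = 2), and Hk2 exceeded Hk3 by 3.33 and 3.20, a mean of 3.27 ± 0.09 (n = 2). These gaps hold with either Hk1 probe, at 2.43 and 3.29 for Hk1 against Hk3. Hk1 lay below Hk2 by 0.51 and 0.30, a mean difference of -0.40 ± 0.14 (n = 2). With Hk1 read from probe A_43_P11538 alone that difference was 0.02. The gap between Hk1 and Hk2 is smaller than that between the Hk1 probes, and 65.1% of the genes with 2 probes had probes at least as far apart as Hk1 and Hk2.

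The voltage-dependent anion channels Vdac1, Vdac2 and Vdac3, on which Hk1 and Hk2 dock at the outer mitochondrial membrane, were all higher in heart. Of all genes, 31.4% were higher. Vdac3 was at 2.30 on array 1 and 2.33 on array 2, and the other two had means of 1.60 (Vdac1) and 1.51 (Vdac2). Hk1 and Hk2 had lower ratios than any of the 3 on both arrays. Adpgk, which phosphorylates glucose with ADP in place of ATP, was lower at -1.58 ± 0.02 (n = 2, limma adjusted p 0.00153). Gckr, the regulatory protein that binds glucokinase, was at 4.05 and 4.28, with a mean of 4.17 ± 0.16 (n = 2).

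Gpi, the isomerase between hexokinase and phosphofructokinase and the only gene for its step, was at 0.79 on both arrays. Its mean of 0.79 ± 0.002 (SD, n = 2) is a 1.73-fold higher signal in heart (limma adjusted p 0.00299). The probes of Gpi lay close together, with means of 0.76 and 0.83, and 92.9% of the genes with 2 probes had probes at least as far apart.

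Aldolase was divided about 0. Aldoa, the aldolase of muscle, was at 1.40 on array 1 and 1.36 on array 2, a mean of 1.38 ± 0.03 (SD, n = 2) or a 2.61-fold higher signal in heart (limma adjusted p 0.00175). Aldoc, the aldolase of brain, was at -1.51 and -1.44, a mean of -1.48 ± 0.04 (n = 2) or a 2.78-fold lower signal (limma adjusted p 0.00178). The arrays differed by 0.0418 for Aldoa and 0.0618 for Aldoc, and the genes lay on opposite sides of 0 on each array.

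Within an array Aldoa exceeded Aldoc by 2.91 and 2.81, a mean of 2.86 ± 0.07 (SD, n = 2), or 7.25-fold between their ratios. Of the genes with 2 probes, 4.14% had probes at least as far apart. Since Aldoc is a gene of nervous tissue, the neural markers were read beside it. Of 4 measured, only Tubb3 passed (-0.79, lower in heart) and 3 did not, whereas 72.9% of all genes passed. The list medians were -0.20 on array 1 and 0.14 on array 2. The part of these markers in the Aldoc result was not tested.

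Aldoa has 3 annotated start sites in the same RefSeq table, and it was the only one of the 9 genes with a match to the MEF2-like pattern. The windows with that match are shown with the same capitals, numbered in the order of the gene.
Aldoa, start 2, chr1:190837649-190837898 (- strand): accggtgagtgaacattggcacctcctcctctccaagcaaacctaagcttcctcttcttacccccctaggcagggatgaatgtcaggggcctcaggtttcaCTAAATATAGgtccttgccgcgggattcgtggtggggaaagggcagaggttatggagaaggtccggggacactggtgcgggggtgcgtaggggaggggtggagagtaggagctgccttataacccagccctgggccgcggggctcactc
Aldoa, start 3, chr1:190836778-190837027 (- strand): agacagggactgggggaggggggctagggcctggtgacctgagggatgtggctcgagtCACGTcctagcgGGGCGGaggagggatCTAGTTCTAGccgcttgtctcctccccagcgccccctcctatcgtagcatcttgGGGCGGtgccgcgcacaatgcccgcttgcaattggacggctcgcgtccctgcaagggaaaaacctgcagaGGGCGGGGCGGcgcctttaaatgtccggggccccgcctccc
The match began 149 bases before start 2 and 165 bases before start 3, and 3.41% of all windows held this pattern. Its 4 middle bases were all A or T at start 2 (CTAAATATAG), as in MEF2 sites, but not at start 3 (CTAGTTCTAG). The window of start 3 also held 4 matches to GGGCGG, of which a pair shared 1 base, and 1 to ACGTG, whereas that of start 2 held neither. The array carried 1 Aldoa probe, and the data do not say from which start the measured transcripts came. Over the 12 windows of the 9 genes, 6 held GGGCGG and 5 held ACGTG, beside 30.5% and 16.6% of all windows. Aldoa gave 3 of the 12 windows and Hk1 gave 2.

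All 7 comparisons between isoforms of a family are drawn in the plot of differences within an array. An exact two-sided sign-flip test over 2 arrays cannot give a p below 0.5, and it gave 0.5 for each of the 7, also after Benjamini-Hochberg adjustment over them, so these differences stand on their size and their spread. The direction was the same on both arrays for all 7. Centring the arrays cannot change them, since both isoforms of a pair shift alike.

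**Figure D2:**
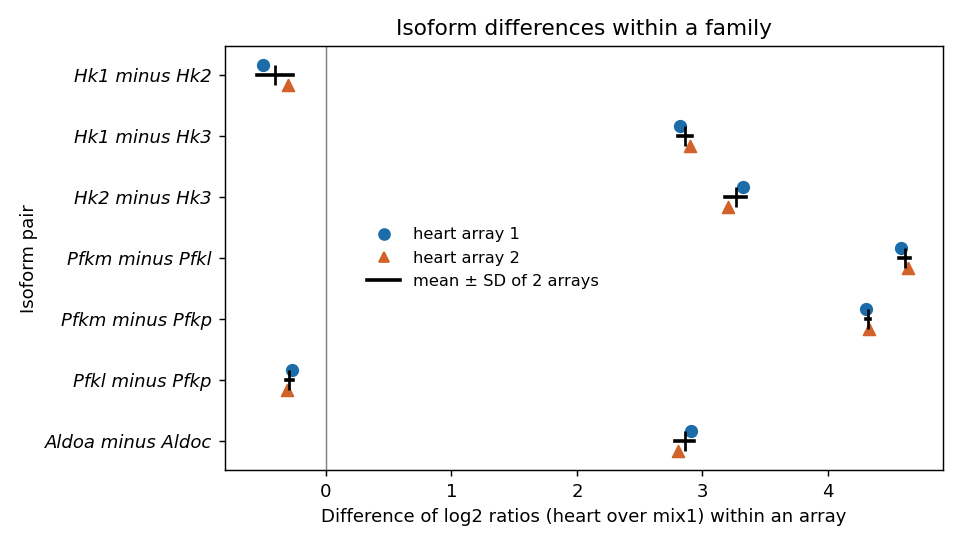
Difference of the log2 ratios (heart over mix1) of 2 isoforms within an array (horizontal axis) for the 7 isoform pairs (vertical axis). Circles and triangles are heart arrays 1 and 2, and the black line is the mean ± SD. The 5 pairs with Pfkm, Hk3 or the aldolases lie between 2.81 and 4.64, while Hk1 minus Hk2 and Pfkl minus Pfkp lie between -0.51 and -0.27.

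Ordered by mean ratio, the genes ran Pfkm, Aldoa, Gpi, Hk2, Hk1, Pfkp, Pfkl, Aldoc and Hk3, and the values of neighbours in this order did not overlap between arrays. Gpi and Hk2 were the closest, 0.04 apart on array 1 and 0.18 on array 2, a gap of 0.11 ± 0.10 (SD, n = 2) that is hardly larger than its own spread. The step from Hk1 to Pfkp was 0.12, well under the 0.853 between the Hk1 probes. The steps from Pfkm to Aldoa (3.09), from Pfkl to Aldoc (1.34) and from Aldoc to Hk3 (1.11) were the widest.

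**Figure D3:**
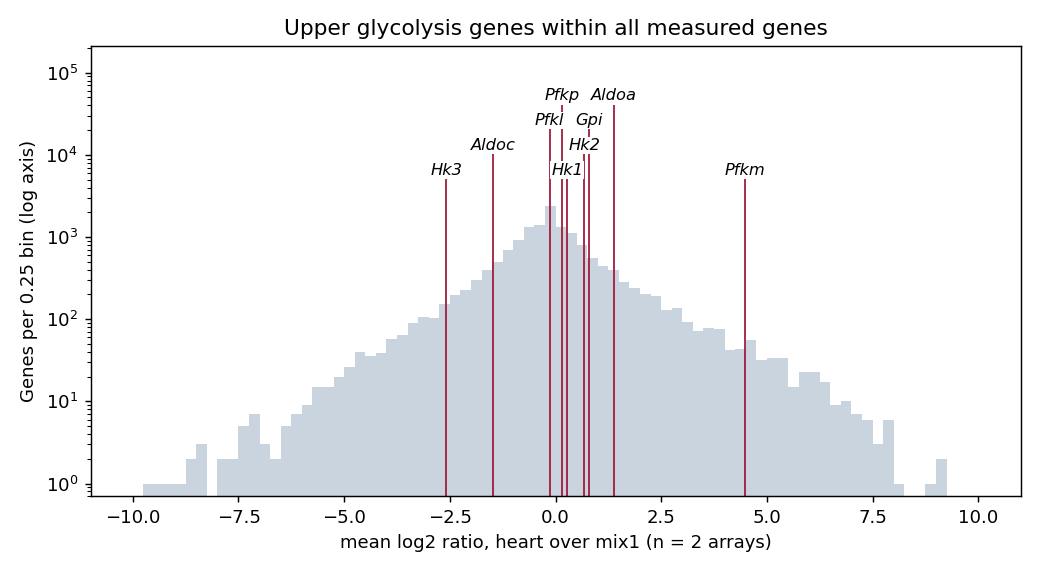
Number of genes in each bin of the mean log2 ratio of heart over mix1 (bars, log axis) for all 15614 genes, with red lines at the means of the 9 upper glycolysis genes. The height of a red line carries no value. Pfkm lies in the right tail at 4.47 and Hk3 in the left flank at -2.58, with 6 genes between -0.14 and 1.38.

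The genes nearest to Pfkm in Euclidean distance over the 2 arrays were Ldb3 (4.46 and 4.47, distance 0.0282), Tspan12 (distance 0.0467) and Fcmr (distance 0.0476). Nearest to Hk3 were Angptl2 (-2.56 and -2.59, distance 0.0141), Msx1 (distance 0.0181) and Hmox1 (distance 0.0189). With 2 arrays against 1 pool, such closeness says only that the ratios are alike.

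The regulators around phosphofructokinase also differed by isoform. The Pfkfb genes encode bifunctional enzymes that make and break down the fructose bisphosphate that activates phosphofructokinase. Pfkfb2, the heart form, was at 2.79 on array 1 and 2.50 on array 2, a mean of 2.65 ± 0.21 (SD, n = 2, limma adjusted p 0.00279). Pfkfb1 was higher at 1.14 ± 0.03. Pfkfb4 was lower at -1.14 ± 0.42, with -0.84 on array 1 and -1.44 on array 2. Pfkfb3, the form induced in proliferating cells, was at -0.17 and 0.02 and did not pass (limma adjusted p 0.427). Fbp2, the muscle fructose bisphosphatase that runs the step backwards, was at 1.61 ± 0.19. Fbp1, its liver counterpart, was at 0.16 ± 0.01. Of the 9 measured genes in this list of other isoforms and regulators, 6 were higher, 2 lower and 1 did not pass, with a median of 0.54, beside 31.4% of all genes higher and 41.5% lower. The other 5 genes of the list were not analysed here.

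From the triose phosphates to lactate, 7 of 12 genes were higher in heart and 5 lower, beside 31.4% and 41.5% of all genes, with a median of 0.53. The lower count was 3 after centring. The isoforms of mutase, enolase and lactate dehydrogenase were farther apart than Pfkm and Pfkl. Pgam2, the muscle mutase, stood 5.68 above Pgam1, Eno3, the muscle enolase, stood 4.79 above Eno1, and Ldhb, the heart lactate dehydrogenase, stood 5.46 above Ldha. Of the genes between aldolase and mutase, Tpi1 was at 0.81, Gapdh at 1.30 and Pgk1 at -0.18. At the entry of glucose, the insulin-responsive carrier gene Slc2a4 was at 3.30, Slc2a3 at 0.48 and Slc2a1, the carrier of most cultured cells, at -0.95.

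**Figure D4:**
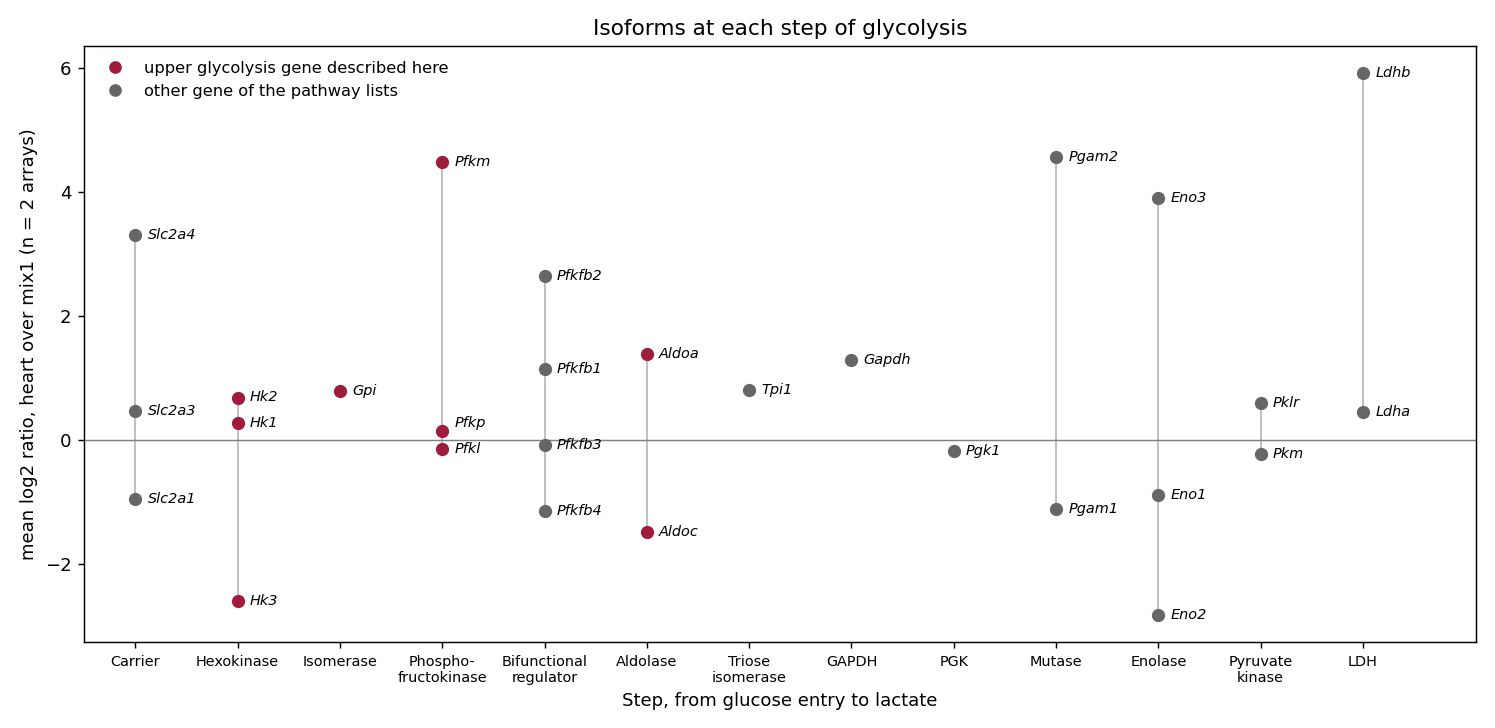
Mean log2 ratio of heart over mix1 over 2 arrays (vertical axis) for the isoforms at each step from glucose entry to lactate (horizontal axis). Red points are the upper glycolysis genes described here, grey points other genes of the pathway, and grey lines span the isoforms of a step. Phosphofructokinase spans -0.14 to 4.47, and lactate dehydrogenase reaches 5.91 with Ldhb.

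Genes that lead hexose phosphates out of glycolysis went both ways. Of 10 measured, 6 were lower (5 after centring), 3 higher and 1 did not pass, beside 41.5% of all genes lower and 31.4% higher, with a median of -0.61. Gfpt1, which opens the hexosamine pathway to protein glycosylation, was at -3.06 ± 0.12 (SD, n = 2), and Tkt, the transketolase of the pentose phosphate pathway, at -2.49 ± 0.04. Those higher were Ugp2 (1.78) and Pgm1 (1.04), which lead to glycogen, and Taldo1 (0.41), a transaldolase. Rpia, an isomerase of pentose phosphates, was at 0.07 and did not pass.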

How the data were processed

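Per the labels' protocols, total RNA was isolated with TRIzol followed by a column clean-up. The submitters' processing notes name Agilent Feature Extraction. What version it had and how it corrected background and dyes is not given in the sources used here. In each array's column the deposited table holds 1 log ratio per probe, read as log2 because the largest ratio is then 2191-fold, whereas base 10 would exceed a 16-bit scanner's range; natural logs were tried as an alternative. Array medians were 0.01 and -0.14, so the deposited log2 values were not centred.

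Of 40012 probes, 20417 had a single gene symbol, 0 several and 19595 none. Accessions of 16987 matched the GRCr8 gene table, and 2301 symbols were updated, none of them changing the 11 probes described. Probes of a gene were averaged. The test over genes used limma 3.58.1 (R 4.3.3; lmFit on an intercept, eBayes, 1 residual degree of freedom, two-sided, Benjamini-Hochberg over all 15614 genes, threshold 0.05), and the code was tested on simulated data. The number of arrays limits the precision. Isoforms were compared by the difference of their ratios within an array. Named genes are the 9 genes, those of 5 pathway lists and marker lists, and the 3 nearest genes to the highest and the lowest of the 9. Genes and lists were chosen with earlier results of these data known. Alternatives were centring, other probe rules, platform symbols, the log base, robust moderation, a fit over probes and leaving out each array. Reading Hk1 from each probe alone was added after the values were seen. Promoter sequences come from RefSeq.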

Additional observations from a re-analysis of the deposited data

How the results depend on the processing

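Of the 9 genes, 6 (Pfkm, Aldoa, Gpi, Hk2, Aldoc and Hk3) kept their direction and their call in every fit over genes. Hk1 did not: centring gave 0.34 (adjusted p 0.102), the probe with the smallest difference between arrays gave -0.15 (adjusted p 0.0433), and that probe alone in an otherwise averaged table gave -0.15 (adjusted p 0.0563). Pfkp lost its call after centring (0.22, adjusted p 0.319) and under robust moderation (0.15, adjusted p 0.0503), while Pfkl passed when each gene was read from its most stable probe (-0.14, adjusted p 0.0401). Pfkl has 1 probe, so its own values were unchanged there and only the fit around it differed. The same holds under every probe rule for the 6 genes that kept their call, except Gpi. Agreement across these rules was thus fixed in advance and does not say how another probe would read. Centring removed array medians of 0.01 and -0.14, which raised gene means by 0.0632, and its moderated test ignored each gene's own spread. Among isoform differences, Hk1 minus Hk2 turned to 0.0221 with Hk1 from its other probe alone. Of the triose to lactate genes, 3 in place of 5 were lower after centring. The cause was not tested. Read as natural logs, every log2 ratio is 1.44 times larger and no call changes. Leaving out an array leaves values with no test, and for all 9 genes and 7 isoform pairs these had the sign of the mean. Signal over background is unknown. Samples could not be paired between groups, because there is 1 group of samples and mix1 has no sample of its own. The channels of an array, and the isoforms on it, were compared within that array.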
